A study of Mus musculus with 101 samples.

Results

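Mouse chromosome 4 was described here through 1880 genes of the deposited copy-number tables, out of 43513 gene symbols in all. The genes were chosen by position, as all symbols that the GRCm38.p6 RefSeq gene table places on this chromosome apart from 11 left out by name, and the chromosome itself was selected on its pattern of gains and losses by genotype and histology in these same tumours. Those gains and losses are therefore given as a description, with no test. Of the 1880 genes, 1130 are protein-coding, 352 are pseudogenes, 231 are long non-coding RNA genes and 51 are microRNA genes. They run from Tmem68 at 3549041 to the last gene end at 156256011.

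Genomic DNA of 98 mammary tumours and 3 spleens had been sequenced at low coverage, which counts reads in bins along the genome and so measures copy number. All tumours came from conditional mouse models that lose the tumour suppressor Trp53 in cells with an active keratin 14 promoter, where the Cre recombinase is made in this family of models. KB1(L1363P)P tumours (n = 24) also carry a Brca1 variant with an altered coiled-coil domain, the part that binds Palb2. KB1P tumours (n = 31) also lose Brca1, KB2P tumours (n = 25) also lose Brca2, and KP tumours (n = 18) lose Trp53 without either. Of the KB1P tumours, 10 are titled KB1PM and share the genotype label KB1P. The KB1(L1363P)P tumours were 12 sarcomatoid tumours, 9 carcinosarcomas and 3 adenocarcinomas. KB1P held 1 sarcomatoid tumour, 1 carcinosarcoma and 29 adenocarcinomas, all 25 KB2P tumours were adenocarcinomas, and KP held 10 sarcomatoid tumours, 2 carcinosarcomas and 6 adenocarcinomas. Ages were not given in the labels, and each tumour is named below by genotype and replicate number.

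Brca1, Palb2 and Brca2 act in order in homologous recombination, the repair of broken DNA by copying an intact sister. Cells without it tend to rejoin breaks wrongly, which leaves many gains and losses of chromosome pieces. Mouse chromosome 4 has its centromere at the low-coordinate end. Its distal part corresponds to the short arm of human chromosome 1, where many tumours lose copies. Its middle part corresponds largely to parts of human chromosome 9.

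Of the microRNA genes, 18 of 51 lay in a stretch with a segment value of at least 1 or at most -1 in some tumour, as described further on, and RefSeq (GRCm38.p6) gave a mature sequence for 16 of them. Shown here are 4 that are often studied in tumours, because they mark such stretches in this chromosome, with the seed (bases 2 to 8, which pair with target RNAs) in capitals. These 4 were picked after their values were seen. The 4 seeds differ from one another.
mmu-miR-30c-5p: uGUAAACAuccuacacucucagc
mmu-miR-34a-5p: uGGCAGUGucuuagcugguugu
mmu-miR-31-5p: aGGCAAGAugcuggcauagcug
mmu-miR-101a-3p: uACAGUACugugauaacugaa
The first comes from Mir30c-1 (chr4:120769584-120769606, minus strand) inside the high-level gain found in 3 tumours. The second comes from Mir34a (chr4:150068473-150068494, plus strand), a direct target of Trp53, inside a high-level gain of KB2P 4. The other two come from Mir31 (chr4:88910614-88910635, minus strand) and Mir101a (chr4:101346957-101346977, minus strand), both inside the deep loss of KB2P 2.

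The values are the authors' log2 ratios, the same ratios after segmentation (log2 segment values) and a whole-number copy score with 2 as neutral. A gain call needed a segment value of about 0.322 and a loss call one of about -0.415. Read depth is unknown, and the noise between neighbouring genes of chromosome 4 was 0.0393 to 0.109 on the log2 scale in tumours. The 3 spleens had 0 calls on chromosome 4 and no segment value beyond 0.00244 in size. In tumour DNA, a change in fewer cells and a smaller change in every cell cannot be told apart. KB2P 10 and KB2P 12 had nearly the same profile over all autosomes (r = 0.985), with the same call for 99.5% of chromosome 4 genes, so the main KB2P shares, counts and peaks are also given without KB2P 12. One gene, Mup-ps23, is placed ahead of all other members by the gene table but carried the same values as Mup20 and Mup3. It was counted among the 1880 genes and left out wherever gene order was used.

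Over all histologies, chromosome 4 was altered most widely in the KB1P and KB2P tumours and hardly at all by the call rule in KP. On average 4.63 ± 16.7% of its genes were lost per KB1(L1363P)P tumour (SD, n = 24), 27.1 ± 33.1% per KB1P tumour (n = 31), 23.7 ± 30.9% per KB2P tumour (n = 25) and 0% per KP tumour (n = 18). Gained genes averaged 0.494 ± 2.42% in KB1(L1363P)P, 9.48 ± 23.0% in KB1P, 11.3 ± 17.5% in KB2P and 0.0443 ± 0.102% in KP. Apart from the KP lost share, where every tumour was at 0, the SD of each share exceeded its mean. One tumour, KB1(L1363P)P 7, decided the KB1(L1363P)P values: without it the lost share was 1.31% and the gained share 0%. Without KB2P 12 the KB2P shares were 22% lost and 10.7% gained. Among adenocarcinomas alone the lost share was 32.7 ± 42.6% in KB1(L1363P)P (SD, n = 3) and 29.0 ± 33.5% in KB1P (n = 29). It was 0% in the KP adenocarcinomas (n = 6), and all KB2P tumours were adenocarcinomas.

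Library series hold different genotypes. Sample names in the titles carry the series number as a prefix for series 5289 and 5490, and the titles do not show the other series. Within series 5289 the lost share was 4.14 ± 18.1% in KB1(L1363P)P (n = 20), 17.0 ± 36.1% in KB1P (n = 10) and 0% in KP (n = 3). The KB1P share was thus lower there than over all its series. It came from KB1P 1, with 77.7% lost, and KB1P 4, with 92.7% lost and 0% after centring on its autosomal median. Within series 5490 the lost share was 7.08 ± 8.13% in KB1(L1363P)P (n = 4) and 0% in KP (SD, n = 5). The other KB1P series hold KB1P tumours only and both KB2P series hold KB2P tumours only, so there series and genotype cannot be told apart.

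Losses were found in more tumours than gains in KB1(L1363P)P and KB1P. At least 1 gene was lost in 5 of 24 KB1(L1363P)P tumours (20.8%, exact 95% binomial interval 7.13 to 42.2), 18 of 31 KB1P tumours (58.1%, 39.1 to 75.5), 16 of 25 KB2P tumours (64.0%, 42.5 to 82.0) and 0 of 18 KP tumours (interval 0 to 18.5%). At least 1 gene was gained in 1 of 24 KB1(L1363P)P tumours (4.17%, 0.105 to 21.1), 14 of 31 KB1P tumours (45.2%, 27.3 to 64.0), 17 of 25 KB2P tumours (68.0%, 46.5 to 85.1) and 3 of 18 KP tumours (16.7%). These intervals cover counting error only. Both kinds of call stood in the same chromosome in 1 KB1(L1363P)P, 9 KB1P, 13 KB2P and 0 KP tumours. Without KB2P 12, 15 of 24 KB2P tumours had a loss, 16 had a gain and 12 had both.

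The mean segment value over the chromosome was -0.06 ± 0.15 in KB1(L1363P)P, -0.12 ± 0.24 in KB1P, -0.14 ± 0.21 in KB2P and -0.07 ± 0.15 in KP (SD). Single KB1(L1363P)P tumours lay between -0.53 and 0.18 with a median of -0.01. KB1P tumours ran from -0.65 to 0.33 (median -0.08), KB2P tumours from -0.69 to 0.29 (median -0.09) and KP tumours from -0.41 to 0.15 (median -0.02). The ranges of the 4 genotypes overlapped widely. The 3 spleens lay within 0.002 of 0.

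**Figure D1:**
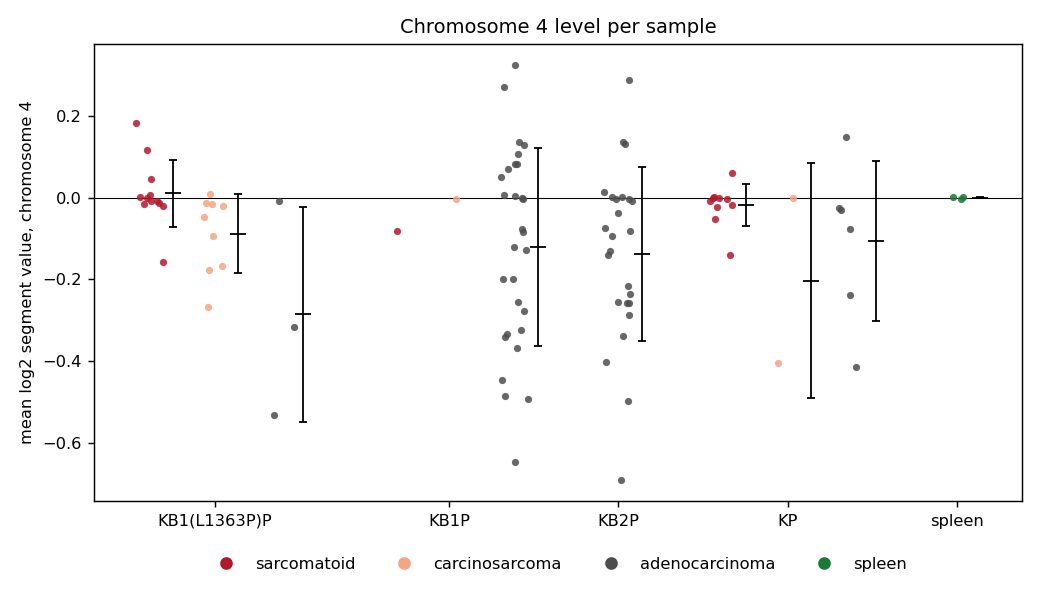
Mean log2 segment value of chromosome 4 (y axis) for each sample, by genotype and histology (x axis), with horizontal marks for the mean and bars for 1 SD of each group with more than 1 sample. Adenocarcinomas spread widest, from -0.69 to 0.33, the 12 sarcomatoid KB1(L1363P)P tumours lie between -0.16 and 0.18, and the spleens lie at 0.

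Within KB1(L1363P)P the calls lay in the adenocarcinomas and carcinosarcomas. None of the 12 sarcomatoid tumours had a called gene, and their mean level was 0.01 ± 0.08 (SD). Of the 9 carcinosarcomas, 3 had losses, and their mean level was -0.09 ± 0.10. The 3 adenocarcinomas had means of -0.53, -0.32 and -0.01 for KB1(L1363P)P 7, KB1(L1363P)P 21 and KB1(L1363P)P 19. The first and second of these chromosomes were broken into pieces and the third was flat: the lost shares were 80.9%, 17.2% and 0%, with 11, 11 and 0 steps in segment value between neighbouring genes. Genotype and histology overlap little in this collection, so adenocarcinomas of KB1(L1363P)P rest on 3 tumours. The labels put the epithelial share at 0% in every sarcomatoid tumour and 100% in every adenocarcinoma. Among the KB1(L1363P)P carcinosarcomas it ran from 2 to 98%, and the 3 with losses had 40%, 90% and 75%. Its part in the levels was not tested.

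In KP no histology had a loss call. Sarcomatoid KP tumours averaged -0.02 ± 0.05 (n = 10) and KP adenocarcinomas -0.11 ± 0.20 (SD, n = 6). The 2 KP carcinosarcomas had -0.41 in KP 6 and 0.00 in KP 3. KP 6 and the adenocarcinoma KP 8 were shifted over the whole chromosome without any step, at -0.406 and -0.415, which is at the loss limit of -0.415 without a call. With loss set at -0.4 the mean lost share of KP was 11.1%, and with loss set beyond -0.2 it was 16.7%.

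Some chromosomes were shifted as a whole without any step. A step-free shift of at least 0.1 in size was seen in 3 of 24 KB1(L1363P)P, 1 of 31 KB1P, 0 of 25 KB2P and 5 of 18 KP tumours. The 3 KB1(L1363P)P shifts were -0.18 in KB1(L1363P)P 5, 0.12 in KB1(L1363P)P 10 and 0.18 in KB1(L1363P)P 16. The KP shifts were -0.406 in KP 6, -0.415 in KP 8, -0.24 in KP 1, -0.14 in KP 11 and 0.15 in KP 4. All of these KB1(L1363P)P and KP shifts lay short of a call. The KB1P shift, 0.326 in KB1P 6, lay just past the gain limit of about 0.322. It was the only call of gain over at least 90% of the genes.

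Loss of at least 90% of the genes was called in 4 tumours. KB1P 4 lost 92.7% and KB1P 31 lost 91.8%, whereas KB2P 20 lost 99.8% and KB2P 24 lost 97.4%. After centring on its autosomal median, KB1P 4 averaged -0.33 and had 0% of genes lost. At 80% of the genes the count was 7 losses and 2 gains, the added ones being KB1(L1363P)P 7, KB1P 19 and KB1P 29 for loss and KB1P 25, with 83.8% gained, for gain. The other altered chromosomes were lost or gained in parts.

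**Figure D2:**
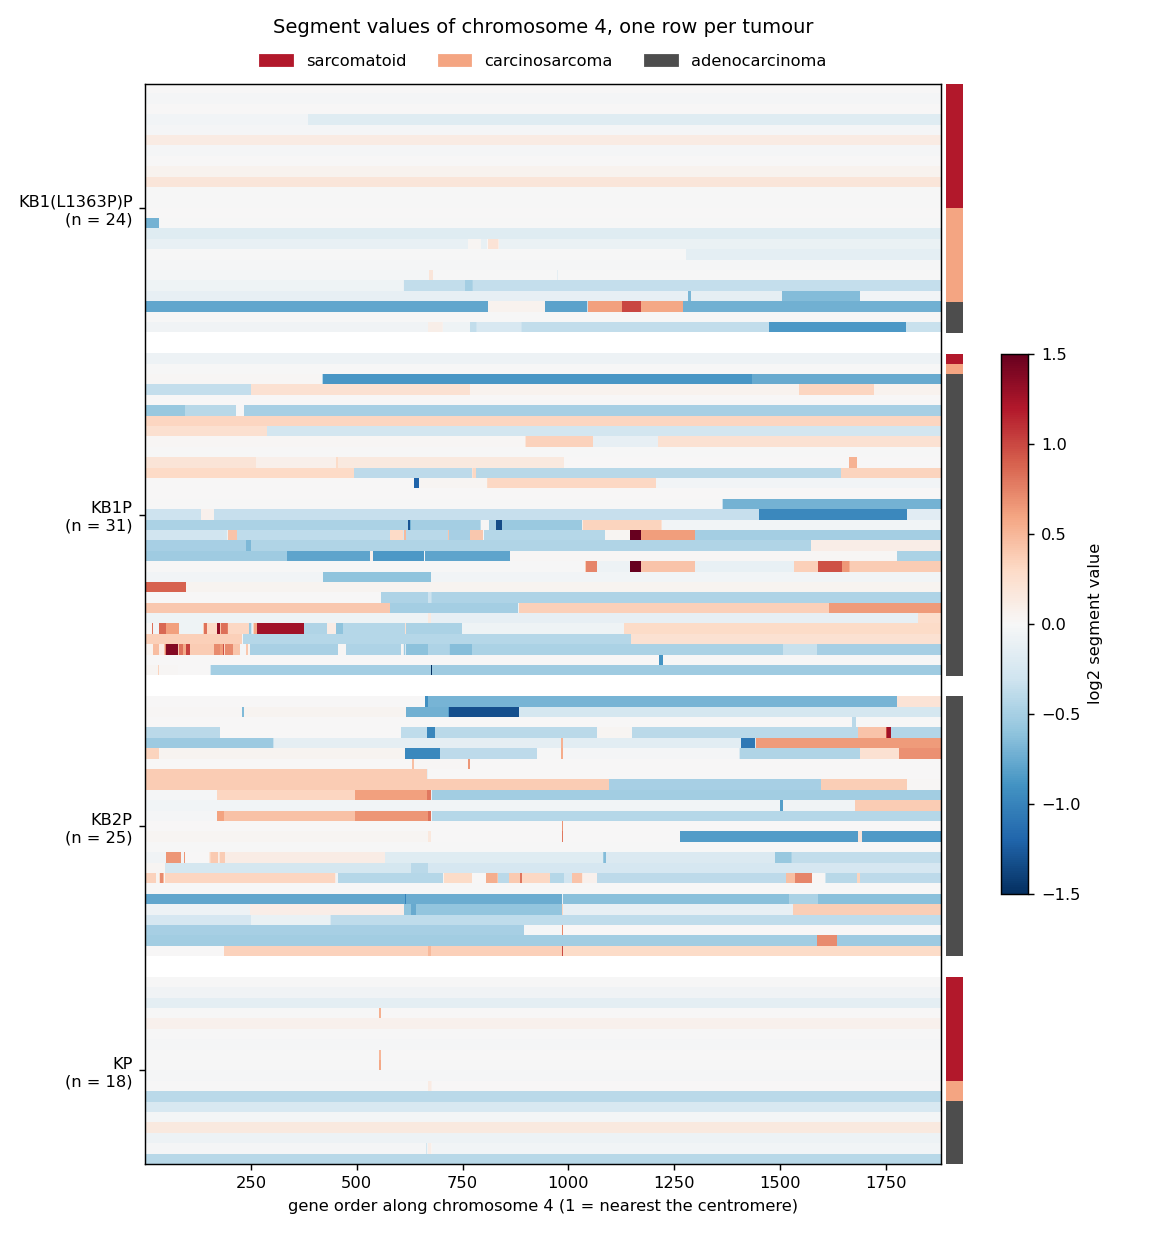
Log2 segment value (colour, blue below and red above 0, with values beyond 1.5 in size drawn at the end of the scale) of each ordered gene (x axis, counted from the centromere) in each tumour (rows), grouped by genotype with the histology on the right. Most KB1(L1363P)P and KP rows are flat, with 15 of 24 and 13 of 18 tumours showing no step, against 6 of 31 KB1P and 2 of 25 KB2P tumours.

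Over all series, chromosomes of KB1P and KB2P had more steps on average. Steps, changes in segment value between neighbouring genes, averaged 2.17 ± 3.66 in KB1(L1363P)P, 7.32 ± 9.87 in KB1P, 7.76 ± 8.76 in KB2P (7.83 without KB2P 12) and 1.33 ± 2.35 in KP (SD). Without the tumours titled KB1PM and KB1P 8, whose labels conflict, the KB1P average was 5.65 (n = 20). Genes were ordered by start and can overlap, and a gene across a change can hold a value between. Steps can therefore outnumber the changes along the chromosome. Within library series 5289 they averaged 1.15 ± 2.94 in KB1(L1363P)P (n = 20), 1.8 ± 2.3 in KB1P (n = 10) and 1.0 ± 1.73 in KP (n = 3), so the 3 genotypes lay within 1 SD of each other there. Within series 5490 they averaged 7.25 ± 2.5 in KB1(L1363P)P (n = 4) and 1.4 ± 3.13 in KP (SD, n = 5). The highest counts were 11 in KB1(L1363P)P 7 and KB1(L1363P)P 21, 41 in KB1P 29, 42 in KB2P 18 and 7 in KP 7. Gained and lost pieces alternated near the centromere in KB1P 29 and along the chromosome in KB2P 18, with 10.5% of genes gained and 81.0% lost in the first, and 9.89% gained and 18.9% lost in the second.

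The stretch lost most often differed between KB1(L1363P)P, KB1P and KB2P, and KP had no lost gene. Other places came close to these peaks. Mtap was lost in 12 KB1P tumours against 13 at the KB1P peak, and Id3 in 10 KB2P tumours against 11 at the KB2P peak. In KB1(L1363P)P the peak was distal, with 3 of 24 tumours (12.5%, 2.66 to 32.4) losing 184 genes from Htr1d to Gm13226 at chr4:136423522-145577330. This stretch holds Kdm1a, a histone demethylase, the signalling genes Wnt4 and Cdc42, the complement genes C1qa, C1qb and C1qc, and Pink1, a kinase that guards mitochondria. The 3 tumours were KB1(L1363P)P 7, KB1(L1363P)P 21 and the carcinosarcoma KB1(L1363P)P 24. Kdm1a itself averaged -0.12 ± 0.26 in KB1(L1363P)P, with 3 tumours lost, -0.16 ± 0.33 in KB1P, with 9 lost, -0.24 ± 0.34 in KB2P, with 9 lost, and -0.07 ± 0.15 in KP, with 0 lost (SD).

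In KB1P the loss peak lay in the middle of the chromosome. The 13 genes from Tle1 to Gm11240 (chr4:72109945-73798378) were lost in 13 of 31 tumours (41.9%, 24.5 to 60.9). Tle1 encodes a corepressor of the Groucho family and Rasef a member of the Rab family of small GTPases. Segment values of Tle1 ran from -0.78 to 0.18 in KB1(L1363P)P (median -0.01), from -1.20 to 0.33 in KB1P (median -0.35), from -0.97 to 0.67 in KB2P (median -0.04) and from -0.41 to 0.15 in KP (median -0.02). KB1P had the lowest median, and its range overlapped all others. Tle1 was lost in 1 KB1(L1363P)P, 13 KB1P, 7 KB2P and 0 KP tumours.

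The loss peak of KB2P lay further along. The 8 genes from Gm11266 to Ttc39b (chr4:82507989-83324309) were lost in 11 of 25 tumours (44.0%, 24.4 to 65.1), or 10 of 24 without KB2P 12. They include Zdhhc21, a palmitoyltransferase, Cer1, a secreted antagonist of BMP and Nodal signals, and Frem1, an extracellular matrix protein. Frem1 ran from -0.78 to 0.18 in KB1(L1363P)P, -0.87 to 0.33 in KB1P, -0.98 to 0.38 in KB2P and -0.41 to 0.15 in KP, with medians of -0.01, -0.12, -0.26 and -0.02 in that order. It was lost in 1 KB1(L1363P)P, 11 KB1P, 11 KB2P and 0 KP tumours.

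Gains peaked at other places. In KB1P, Triqk and Gm11820 near the centromere (chr4:12906837-13108752) were gained in 7 of 31 tumours (22.6%, 9.59 to 41.1) and lost in 4. Triqk, a small membrane protein, ran from -0.57 to 0.89 in KB1P with a median of 0.00. In KB1(L1363P)P the only gain was that of KB1(L1363P)P 7, over 223 genes from Mutyh, a base excision repair gene, to Zmym4 (chr4:116807636-126969377).

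By histology, the 2 KB1(L1363P)P adenocarcinomas with losses shared 324 lost genes from Gm12984 to Gm833 (chr4:135306132-152700922), which include the distal stretch above. Among the 9 KB1(L1363P)P carcinosarcomas no gene was lost in more than 1 tumour. Their losses lay at 4 separate places, from Tmem68 to Gm23860 with the kinase genes Lyn and Mos, from Gm12632 to Gm12648 with Elavl2, from Gm12947 to Hmgb4os with Csmd2, and from Htr1d to Gm13226. All KB1P calls lay in adenocarcinomas, so its peaks held 13 lost and 7 gained of 29 tumours there.

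**Figure D3:**
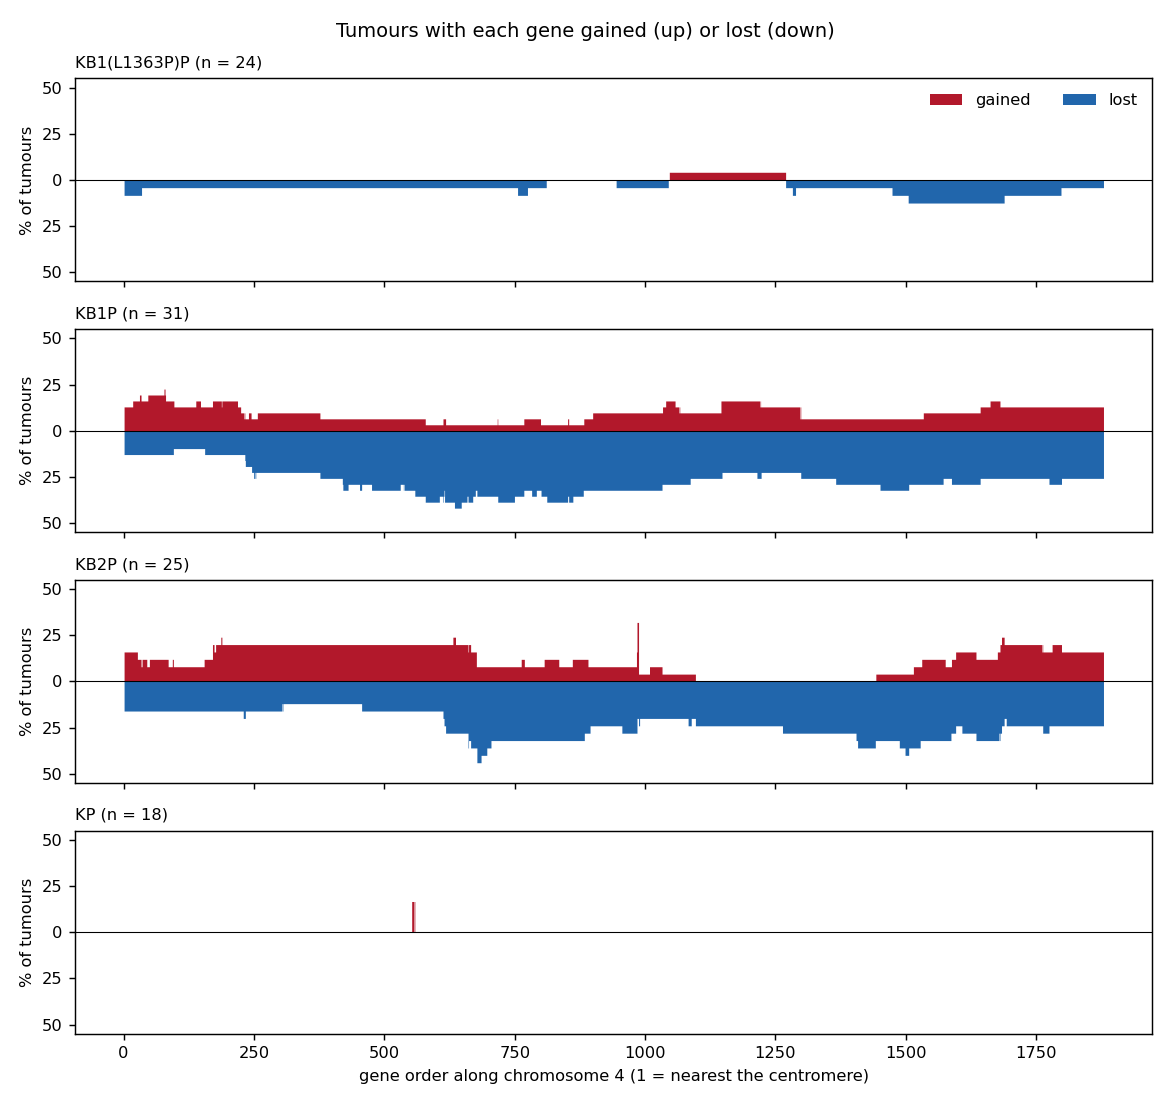
Percent of tumours with a gain call (up) or a loss call (down) for each ordered gene (x axis, counted from the centromere), 1 panel per genotype. Losses reach 12.5% in KB1(L1363P)P, 41.9% in KB1P and 44.0% in KB2P and are absent in KP, and gains reach 4.17%, 22.6%, 32.0% and 16.7% in the same order.

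Along windows of 10 Mb the mean level of KB1P and KB2P had more than 1 low stretch. In KB1P it was 0.01 in the window from 10 to 20 Mb, -0.26 from 70 to 80 Mb, -0.07 from 120 to 130 Mb and -0.14 from 130 to 140 Mb. In KB2P it was 0.00 from 40 to 50 Mb, -0.24 from 80 to 90 Mb, -0.17 from 110 to 120 Mb, -0.23 from 130 to 140 Mb and -0.10 from 150 to 160 Mb. KB1(L1363P)P windows lay between -0.11, reached from 140 to 150 Mb, and -0.04. KP windows lay between -0.069 and -0.064.

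The share of genes lost was tied to these windows. From 70 to 80 Mb, 4.17% of gene values were lost in KB1(L1363P)P, 39.5% in KB1P, 29.3% in KB2P and 0% in KP. From 10 to 20 Mb, near the centromere, the lost shares were 4.17%, 11.6%, 16.0% and 0% in the same order, and the gained shares 0%, 16.3%, 9.95% and 0%. In KB1P the loss share thus exceeded the gain share in the middle of the chromosome and not near the centromere.

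High-level gain (a segment value of at least 1) was seen in 6 tumours and covered 209 genes in all. In 3 tumours it met in the same 24 genes from Edn2 to Gm12881 (chr4:120161206-121130213). The segment value there was 1.00 in KB1(L1363P)P 7, 1.55 in KB1P 18 and 1.49 in KB1P 21. Farther out, Slc2a1 stood at 0.61, 0.03 and -0.08 and Ppt1 at 0.58, 0.63 and 0.43 in the same order. Directly before and after each tumour's own high-level run the values were 0.81 and 0.58 in KB1(L1363P)P 7. They were 0.98 and 0.93 in KB1P 18 and -0.08 and 0.78 in KB1P 21, so KB1P 18 was also gained beside its run. The 24 genes include Edn2, an endothelin, Scmh1, a Polycomb protein, Ctps, which makes CTP, and Cited4, a coactivator partner of CBP and p300. Nfyc, a subunit of the CCAAT-binding factor NF-Y, Exo5, a single-strand exonuclease, and Mir30c-1 are also among them. KB1(L1363P)P 7 and both KB1P tumours were adenocarcinomas, the first of library series 5289 and the others of the D-numbered series. Elsewhere Edn2 was not at high level: its median was -0.01 in KB1(L1363P)P, 0.00 in KB1P, -0.12 in KB2P and -0.02 in KP.

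The other high-level gains each belonged to 1 tumour. KB1P 27 had 111 genes from Ddx58 to Gm12463 (chr4:40203777-44753182) at 1.26, including Melk, a mitotic kinase, Vcp, a segregase of the ubiquitin system, Pax5, a B-cell transcription factor, and Aptx, which repairs abortive ligation ends. The same tumour had 6 genes around Manea at 1.31. KB1P 29 had 27 genes from Gm12920 to Cibar1 (chr4:10813529-12172023) at 1.37, with Trp53inp1, a stress-response target of Trp53, and Rad54b, a recombination protein, and 10 genes with Calb1 and Ripk2 at 1.03. KB2P 4 had 9 genes from Gm13070 to Eno1 (chr4:149902643-150248879) at 1.26, with Mir34a and the fructose transporter Slc2a5, and the nearby Gm13092 at the same value. No KP tumour reached this level.

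Deep loss (a segment value of at most -1) was seen in 6 tumours as well, over 223 genes. The lowest value on the chromosome was at Nfib, a transcription factor of the nuclear factor I family that acts in mammary epithelium and other tissues. In KB1P 31, Nfib and its neighbour Gm5860 (chr4:82065380-82506751) were at -1.95 and -1.94, against -0.51 before and -0.54 after them. In KB1P 13, the deep loss at -1.20 covered exactly the 13 genes of the KB1P loss peak, Tle1 to Gm11240, with 0.01 and 0.03 on its flanks. KB1P 17 had 13 genes from Efcab7 to Gm24468 (chr4:99829445-101186867) at -1.34, with Ror1, a receptor kinase-like Wnt receptor, and 6 small genes between Gm11221 and Ywhaq-ps3 at -1.30.

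The widest deep loss was that of KB2P 2, with 166 genes from Gm12604 to Gm12722 (chr4:87580787-105374951) at -1.32. It held the type I interferon cluster with Ifnb1, Mtap of the methionine salvage pathway, Jun, Tek, Nfia, Lepr, Usp1, a deubiquitinase of the Fanconi pathway, and the microRNA genes Mir31 and Mir101a shown above. The run of KB1P 17 from Efcab7 to Gm24468 lay inside it, so these 13 genes were at deep loss in 2 tumours. KB2P 5 had 34 genes from Gpr3 to Sh3bgrl3 (chr4:133209340-134128733) at -1.07, with Sfn, a 14-3-3 protein induced by Trp53, and Lin28a, an RNA-binding protein of early development. KB2P 20 had 2 genes, Hmgb1-rs18 and Gm11249, at -1.01. No KB1(L1363P)P or KP tumour had a deep loss.

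Steps recurred inside or beside a few genes. Nfib differed from both neighbours in 6 tumours, the highest count among ordered genes, and lay between its neighbours' values in 5 of them. Without KB2P 12 these counts were 5 and 4, so Nfib then tied with Ptprd at 5. Snx30 and the short Gm12543 followed with 4 each, and the part of gene length was not tested. In KB1P 31 Nfib was at -1.95 beside -1.94 at Gm5860. In KB2P 10 the values were 0.79 at Gm5860, -0.13 at Nfib and -0.52 at Gm11266, and in KB2P 12 they were 0.83, -0.05 and -0.43. KB1P 24 (-0.31, -0.39 and -0.47), KP 3 (0.13, 0.06 and 0.00) and KP 7 (0.10, 0.03 and -0.04) had the same order with small steps, and KB2P 25 changed from 0.49 to 0.36 on entering Nfib. A gene's value can average bins on both sides of a step, so the place of a step within a gene is not resolved. Ptprd, a receptor tyrosine phosphatase whose gene spans 2270 kb, differed from both neighbours in 5 tumours. Of these, KB2P 4 had -0.39, -0.70 and -0.98 before, at and after it.

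A pair of narrow gains recurred within single library series. The first ran from Skint1 to Gm12825 (chr4:112006269-114097444). Skint1 is needed in mice for a class of T cells in the epidermis, and it belongs to a gene family that differs between strains. Skint1 stood above both flanks, Slc5a9 and Skint11, in 8 of 20 KB2P tumours of library series 3196 and in 0 of 5 KB2P tumours of series 3499. It did so in none of the 73 tumours of the other genotypes. The rise over the higher flank was 0.44 to 0.78 with a median of 0.64. In KB2P 14 the block was at 0.79 against 0.01 on both flanks, and in KB2P 20 it was at -0.09 against -0.74 and -0.62, a rise without a gain call. A gain was called in 8 of 25 KB2P tumours (32.0%, 14.9 to 53.5), the most often gained stretch of KB2P. Of these, 7 were among the 8 raised tumours, and KB2P 9 was gained without a rise over its flanks. Before segmentation the rise reached further than these 8 tumours. The log2 ratio of Skint5 stood 0.35 to 1.35 above the segment value of Slc5a9 in the 20 KB2P tumours of series 3196 (median 0.80) and 0.02 to 0.62 above it in the 5 of series 3499 (median 0.23). The same difference ran from -0.27 to 0.35 in KB1(L1363P)P (median 0.14), from -0.12 to 0.37 in KB1P (median 0.14), from -0.24 to 0.37 in KP (median 0.08) and from -0.05 to 0.25 in the spleens (median -0.02). The lowest of the 20 tumours of series 3196 thus lay just under the highest tumour of the other genotypes, and those of series 3499 overlapped them widely. Strain background was not given in the labels, and its part in the block was not tested.

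The gain in KP covered Ptbp3, an RNA-binding protein, Hsdl2, E130308A19Rik, Inip, a subunit of the SOSS complex that binds single-stranded DNA, and Gm12543 (chr4:59471868-59783885 and, for Gm12543, chr4:59833676-59834301). It stood at 0.53 in KP 12, 0.50 in KP 16 and 0.58 in KP 17, with flanks between -0.01 and 0.00, and was the only gain call in KP. Snx30, between Inip and Gm12543 by start, stood at 0.18, 0.17 and 0.19. All 3 tumours were sarcomatoid and of library series 5750, which held 10 KP tumours and no other genotype, so the series and the KP sarcomatoid group cannot be told apart. Ptbp3 was raised over both flanks in 0 of the other 95 tumours.

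**Figure D4:**
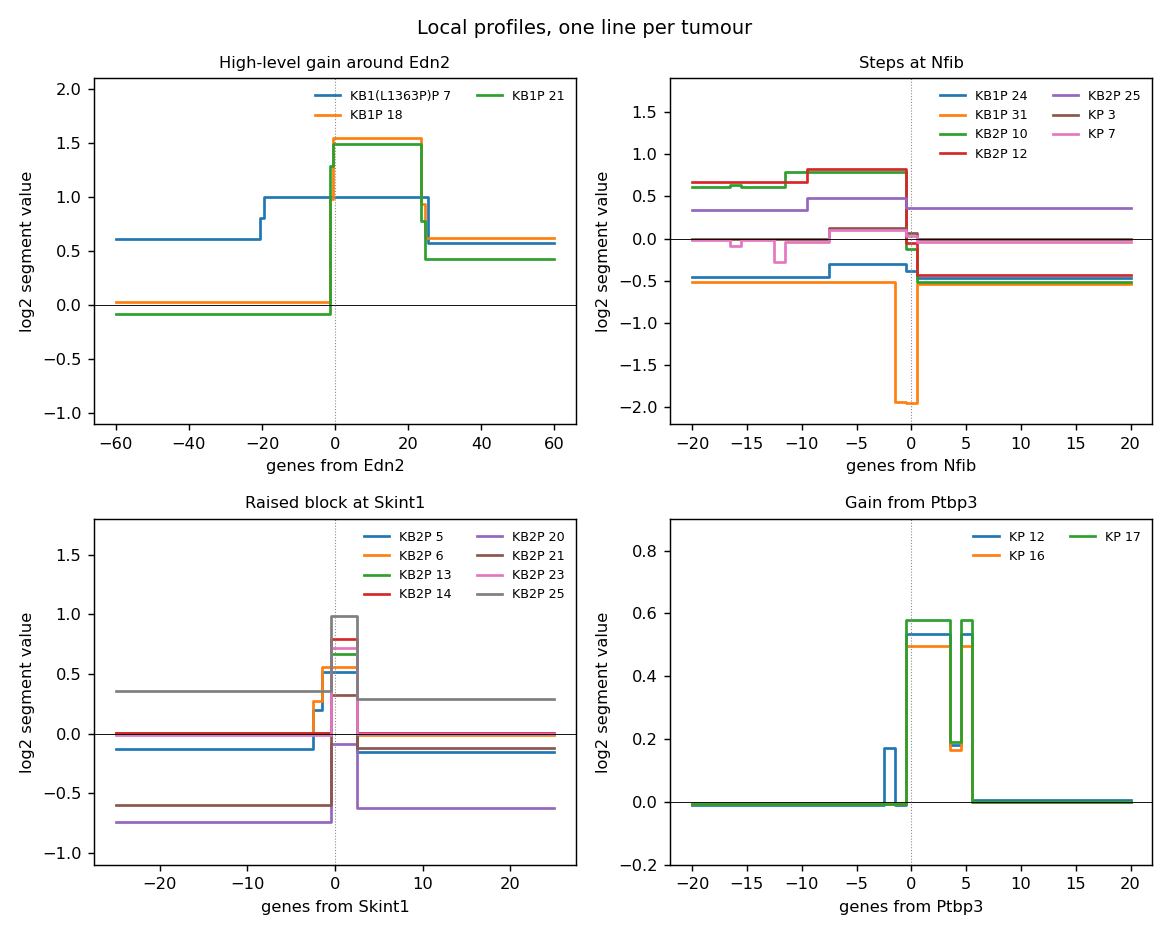
Log2 segment value (y axis) around 4 places (x axis, number of genes from the named gene), 1 line per tumour. The 3 tumours at Edn2 reach 1.00 to 1.55, KB1P 31 reaches -1.95 at Nfib, the 8 KB2P tumours step up at Skint1 by 0.44 to 0.78 over the higher flank, and the 3 KP tumours stand at 0.50 to 0.58 from Ptbp3.

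Steps were densest from 110 to 120 Mb, with 55 of 497 steps in 20 tumours. The 174 genes of that window run from Elavl4 to Hivep3 and include the Skint block. The tumours were 2 KB1(L1363P)P, 6 KB1P, 12 KB2P and 0 KP. The window from 80 to 90 Mb, which holds Nfib, followed with 41 steps in 19 tumours.

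Lists of genes by function were placed on this background, and they were drawn up with earlier results of these data known. A listed gene counted as measured only where its symbol matched a member of chromosome 4. The others can be absent, lie elsewhere or carry another symbol. Over the 98 tumours a member was gained in 2 to 11 tumours (median 6) and lost in 8 to 23 (median 16), whereas the median over all autosomal genes was 9 tumours gained and 10 lost. All 28 growth and signalling genes were measured, with a median of 4 tumours gained and 16 lost. Tox, Mtor and Pik3cd were gained most often, in 9 tumours each, and Bnc2, E2f2 and Id3 were lost most often, in 22 each. Mtor and Pik3cd encode kinases of the growth pathway downstream of insulin-like signals. Id3 and E2f2 neighbour each other and had the same counts, 2 KB1(L1363P)P, 10 KB1P, 10 KB2P and 0 KP tumours lost.

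Of 29 growth-restraining and apoptosis genes, 26 were matched by symbol to members, with a median of 7 tumours gained and 17.5 lost. Trp53inp1, a member named above, was listed under another symbol and is not among the 26. Bach2, Epha7 and Map3k7, in the part nearer the centromere, were gained in 10 tumours each. Ptprd was lost in 22 tumours (1 KB1(L1363P)P, 12 KB1P, 9 KB2P and 0 KP) and Mtap in 21 (1, 12, 8 and 0 in the same order), followed by Rap1gap and Tusc1 in 20 each. Casp9, which starts the caspase cascade, Spen and Epha2 were lost in 3 KB1(L1363P)P, 9 KB1P, 7 KB2P and 0 KP tumours each. The brake on the cell cycle Cdkn2c was lost in 1, 10, 7 and 0 tumours in that order. Neighbouring genes share segments, so these counts are not independent of each other.

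DNA repair and replication genes (11 of 14 measured) had medians of 7 tumours gained and 15 lost. Rad54b and Nol9 were gained in 9 tumours each and the next 5 genes in 7. Usp1 (20 tumours), Aunip (19 tumours) and Rpa2 and Nol9 (17 tumours each) were lost most often. Nol9 was on this list although it acts in ribosomal RNA processing. Rpa2, a subunit of the protein that coats single-stranded DNA, was lost in 1 KB1(L1363P)P, 9 KB1P, 7 KB2P and 0 KP tumours. Mitosis genes (9 of 12 measured) had medians of 5 and 14 tumours. Among them Melk and Aurkaip1 were gained in 8 tumours each and Kif2c in 6, and Rcc1 was lost in 17, Stil in 16, and Nasp and Aurkaip1 in 15 each.

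Immune genes (15 of 17 measured) had medians of 5 tumours gained and 17 lost. The interferon genes Ifnb1, Ifna1 and Ifna2 and the complement genes C1qa, C1qb and C1qc were lost in 21 tumours each. Isg15, Tnfrsf4, Tnfrsf18 and Tnfrsf9 were gained in 8 each. The complement genes were lost in 3 KB1(L1363P)P, 9 KB1P, 9 KB2P and 0 KP tumours. Of 15 genes of strain-variable clusters, 7 were measured, and Skint1 was gained in 11 tumours, Mup20, Mup3, Mup21 and Skint7 in 7 each. Skint7 was lost in 18 tumours and the other 6 in 16 each. All list medians lay within 2 tumours of the median over all members.

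The segment values of all 43513 genes were also compared between genotypes with limma, and the counts are given without reading anything from them, since the genotype pattern chose the chromosome. Over all genes, 0% were called at an adjusted p under 0.05 for KB1(L1363P)P minus KP, 13.5% for KB1(L1363P)P minus KB1P, 12.8% for KB1(L1363P)P minus KB2P, 13.5% for KB1P minus KP and 12% for KB2P minus KP. On chromosome 4 the called genes numbered 0, 0, 75, 0 and 8 in the same order. At an unadjusted p under 0.05 the limma counts on chromosome 4 were 0, 253, 569, 53 and 337. Over all 43513 genes these limma counts were 15, 12824, 11700, 11906 and 10652 in the same order. The 75 genes, higher in KB1(L1363P)P than in KB2P by 0.21 to 0.25, lay in 4 runs that start at Gm11266, Ube2u, Psmb2 and Gpr3. The 8 genes from Hmgn2 to Sh3bgrl3 were lower in KB2P than in KP by 0.23, that is a difference of -0.23. Without KB2P 12 the counts were 34 and 0, beside 12.2% and 10.5% of all genes. Among adenocarcinomas alone, with 3 KB1(L1363P)P and 6 KP tumours, they were 0 and 0, beside 0% and 0.0529% of all genes.

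Set beside the other 18 autosomes, chromosome 4 was in the upper part for losses and the lower part for gains in the tumours without Brca1 or Brca2. Its lost share ranked 8 of 19 autosomes in KB1(L1363P)P, 6 in KB1P, 7 in KB2P and 13, tied at 0%, in KP. The median lost share of the other autosomes was 3.28% in KB1(L1363P)P, 16.1% in KB1P, 16.4% in KB2P and 3.19% in KP. Its gained share ranked 12, 16, 15 and 16 in the same order, beside medians of 1.57%, 14.2%, 17.5% and 1.45% for the others. Chromosome 12 was lost in 37.9% of gene values in KB1(L1363P)P and 33.9% in KP, where chromosome 4 stood at 4.63% and 0%.

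**Figure D5:**
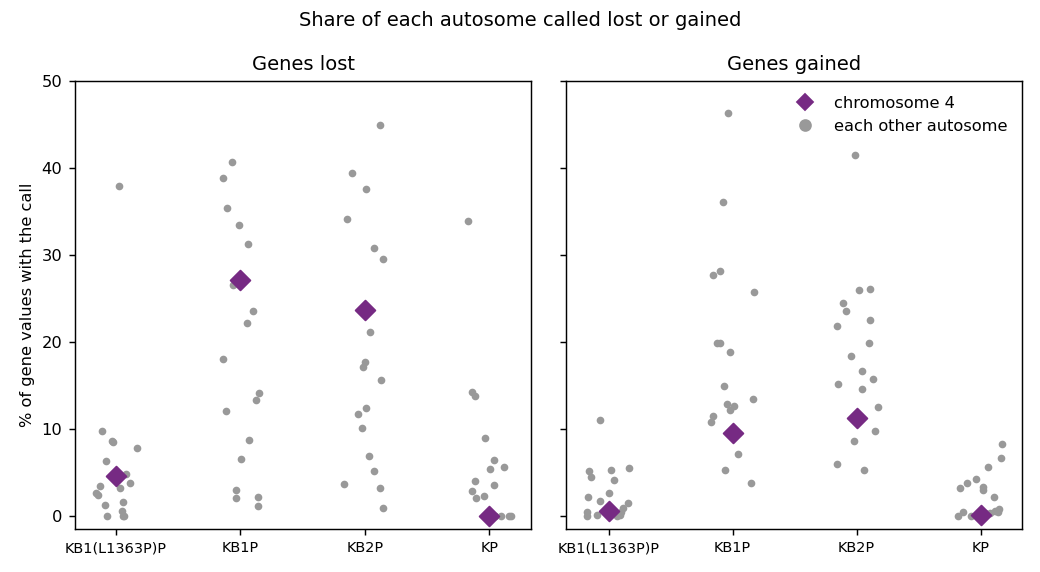
Percent of gene values called lost (left) or gained (right) on chromosome 4 (diamonds) and on each of the other 18 autosomes (points), by genotype (x axis). For losses the diamond stands at 4.63% in KB1(L1363P)P, 27.1% in KB1P, 23.7% in KB2P and 0% in KP.

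The mean level of chromosome 4 was also set against that of the other autosomes. Among 29 KB1P adenocarcinomas the largest correlations of mean level, out of 18 computed, were with chromosome 9 (r = 0.53, permutation p = 0.0039, adjusted p = 0.0696; rho = 0.56, adjusted p = 0.0347) and chromosome 10 (r = 0.49, permutation p = 0.00773, adjusted p = 0.0696; rho = 0.53, adjusted p = 0.0347). Without the 2 tumours farthest from the median of chromosome 4, r was 0.51 and 0.60. Among 25 KB2P tumours they were with chromosome 17 (r = 0.57, permutation p = 0.00327, adjusted p = 0.04; rho = 0.55, adjusted p = 0.0452) and chromosome 7 (r = 0.55, permutation p = 0.00445, adjusted p = 0.04; rho = 0.62, adjusted p = 0.0212). Without the 2 farthest tumours r was 0.54 and 0.49 with adjusted p = 0.138 and 0.148 by permutation, so neither was past the threshold at the smaller n. Without KB2P 12 r stayed at 0.57 and 0.55, with an adjusted permutation p of 0.0516 for both by r and of 0.0356 and 0.0326 by rho. Centring each tumour on its autosomal median left 0 of 18 correlations past the threshold in either genotype, with r = 0.45 for chromosome 9 and 0.34 for chromosome 10 in KB1P, and 0.51 for chromosome 17 and 0.49 for chromosome 7 in KB2P. The part of the library series in these correlations was not tested.

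KB1P adenocarcinomas were also compared by title class and by library series. The 10 tumours titled KB1PM averaged -0.09 ± 0.23 and the 11 titled KB1P outside series 5289 averaged -0.16 ± 0.20 (SD), a difference of 0.06 (two-sided permutation test, p = 0.503, adjusted p = 0.658 over 2 tests). The 8 tumours of series 5289 averaged -0.10 ± 0.325 against the same 11 tumours, a difference of 0.05 (exact two-sided permutation test, p = 0.658, adjusted p = 0.658). With these sample sizes a p that misses the threshold does not show that the groups are alike.

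Titles of 3 KB1(L1363P)P pairs share a tumour number, and the labels do not say whether a number marks an animal. KB1(L1363P)P 6, sarcomatoid, had 0 steps and a mean of 0.00, whereas KB1(L1363P)P 7, an adenocarcinoma, had 11 steps and a mean of -0.53. Only 7.23% of chromosome 4 genes had the same call in both. KB1(L1363P)P 18, sarcomatoid, and KB1(L1363P)P 19, an adenocarcinoma, were both flat at -0.01. The carcinosarcomas KB1(L1363P)P 23 and KB1(L1363P)P 24 had 6 steps each, means of -0.27 and -0.17, and lost shares of 1.01% and 10.1%. Their segment values over the autosomes correlated at r = 0.591, against 0.115 and 0.083 for the other pairs, and 88.9% of chromosome 4 genes had the same call. They are 2 of the 3 carcinosarcomas with losses.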

How the data were processed

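Low-coverage DNA sequencing of 98 tumours and 3 spleens gave 3 deposited matrices with 1 column per sample. Reads were aligned and counted in bins of 20 kb with correction for GC content and mappability, per the labels' protocols, and the submitters' processing notes name mm10, BWA 0.7.17, cutadapt 2.5, Picard and SAMtools 1.10, while the protocol text names a human build. Of the authors' deposited values, log2 ratios are those before segmentation and log2 segment values those after it. The deposited copy score is the authors' whole number per gene and equals 2 times 2 to the segment value, rounded, in 99.9919% of values. How the values were segmented, and against which DNA the ratios were taken, is not given in the sources used here.

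Genes were placed by symbol (32661) or older symbol (30) in RefSeq GRCm38.p6, and 10822 symbols stayed without a place. Means, shares and steps were computed per tumour in Python 3.11.15 with NumPy 2.4.6, SciPy 1.17.1, pandas 2.3.3 and matplotlib 3.10.9. For genotypes, lmFit and eBayes of limma 3.58.1 (R 4.3.3) were run over all genes with 5 contrasts and Benjamini-Hochberg adjustment. Mean levels and correlations used permutation tests with 100000 resamples, exact where a group had under 10 tumours. Scripts were tested on simulated data. Whether each tumour had its own animal is not in the labels; a p-value here reflects only how these samples vary. KB1P 8 carries the name of the L1363P model in its description and kept its genotype label.

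The members, lists and tests were chosen with earlier results of these data known. Named genes are the most often gained and lost members per genotype and per genotype and histology with at least 3 tumours, every run at high-level gain or deep loss, the 3 most often gained and lost of each list, and the window with the most steps. Alternatives covered thresholds, gene weighting, unsegmented ratios, centring, histology, library series, uncertain labels and single tumours.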

Additional observations from a re-analysis of the deposited data

Results flagged for a closer look

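Of 8 combinations of measure and group with 4 to 10 tumours, 2 held a tumour far from the rest by Dixon's 95% limit, which chance passes in about 1 in 20 groups of evenly spread values. In groups where most tumours are at 0, as in the second case, any single other value passes it. Among the 9 KB1(L1363P)P carcinosarcomas, KB1(L1363P)P 24 lost 10.1% of the chromosome 4 genes, and its gap to the next tumour was 0.821 of the whole range. This tumour carries the loss from Htr1d to Gm13226 described above. Among the 6 KP adenocarcinomas, KP 7 had 7 steps where the other 5 had 0, so the gap was the whole range. Its segment values stayed between -0.28 and 0.10, with no call, and small steps at Nfib and Ptprd are among them.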

How the results depend on the processing

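Under other settings, 123 repeated values stayed within 1 SD between tumours, within 1.5 times of a count or on the same side of a test's threshold, and 26 did not. Taking adenocarcinomas alone moved KB1(L1363P)P to a mean level of -0.285, 32.7% lost, 3.95% gained and 7.33 steps, which rests on 3 tumours. A limit of 0.1 gave 23.0% lost and 8.91% gained in KB1(L1363P)P and 22.2% lost and 5.65% gained in KP. For KP the lost share was 16.7% at a limit of 0.2, 11.1% at -0.4 and 5.56% after centring on the autosomal median. At 80% of genes there were 7 whole losses and 2 whole gains. By Pearson's r, the number of correlated autosomes became 1 in KB1P without the 2 farthest tumours, and 0 in KB2P without them, after centring, or without KB2P replicate 12. By rho, 2 autosomes passed in KB1P without the 2 tumours and 2 in KB2P without KB2P replicate 12. Some values within 1 SD still moved over 1.5 times. At a limit of 0.2, 9.15% were lost in KB1(L1363P)P, 16.7% gained in KB1P and 39.3% lost in KB2P, and at 0.1 the last 2 were 18.1% and 44.3%. With a minimum step of 0.2 there were 0.875 steps in KB1(L1363P)P and 0.778 in KP. Library series 5289 alone gave the lower KB1P values in the report. The limma counts on chromosome 4 became, after centring, 84 for KB1(L1363P)P minus KB1P, 282 for KB1(L1363P)P minus KB2P, 5 for KB1P minus KP and 46 for KB2P minus KP. These were 4.47%, 15%, 0.266% and 2.45% of its genes, beside 14.1%, 13.1%, 11.7% and 11.2% of all genes. In adenocarcinomas both comparisons with KB2P gave 0 on chromosome 4, beside 0% and 0.0529% of all genes. Without KB2P replicate 12 these 2 counts were 34 and 0, beside 12.2% and 10.5% of all genes. When tumours titled KB1PM and KB1P 8 were left out, KB2P minus KP gave 34, beside 14.3% of all genes. The cause of these moves was not tested. The settings without KB2P replicate 12, the limit of -0.4 and the minimum step of 0.2 were chosen after seeing the data. No paired analysis was possible because replicate numbers only name tumours. Read depth, unknown here, limits how small a change or stretch can be called.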
